A study of Homo sapiens with 8 samples.

Results

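The regions described here are the binding peaks on human chromosome 1 in 6 deposited peak lists from chromatin immunoprecipitation sequencing (ChIP-seq). Every peak on chromosome 1 in the hg19 build was taken, 24948 peaks of 201619 in all. Peaks that end before 121.5 Mb were assigned to the short arm and peaks that start after 142.5 Mb to the long arm. No list held a peak between the arms. The tested cells were NT2/D1, an embryonal carcinoma line derived from a human germ cell tumour, with 1 list each for SOX2, OCT4 and NANOG. The cells they were set against were H9, a human embryonic stem cell line, with 1 list for each of the same factors. No treatment or genetic change was recorded for either line. Peaks had been called against an IgG library of the same line, an immunoprecipitation with an antibody that recognises none of the factors. Each group holds 1 library of 1 established line, so there is no replicate check and no test in what follows. Intervals are 95% intervals and cover counting error only.

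SOX2, OCT4 (encoded by POU5F1) and NANOG are the transcription factors at the centre of the pluripotency network. SOX2 and OCT4 bind next to each other on a joint SOX and octamer element, and NANOG often occupies the same enhancers. All of them are made in embryonic stem cells and in embryonal carcinoma, the malignant counterpart of those cells. Germ cell tumour lines commonly carry extra or missing chromosome segments. DNA copy number was not measured here, and its part in the results was not tested.

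The NT2/D1 library labelled NANOG by title and file is labelled OCT4 in its source field, and the library labelled OCT4 there as NANOG. Titles were followed throughout, and the main shares are also given with the labels exchanged. Chromosome 1 was chosen for its share of peaks in the NT2/D1 lists relative to the H9 lists, so that share is a description. It was 17.4% (6701 of 38423 peaks) for NT2/D1 SOX2, against 8.27% (1601 of 19349) for H9 SOX2. For OCT4 it was 11.7% (5401 of 46169) in NT2/D1, against 8.42% (2489 of 29575) in H9. For NANOG it was 17.4% (5951 of 34208) in NT2/D1, against 8.28% (2805 of 33895) in H9. The NT2/D1 share was therefore 2.11 times (interval 2.00 to 2.22) the H9 share for SOX2, 1.39 times (1.33 to 1.45) for OCT4 and 2.10 times (2.02 to 2.19) for NANOG. By the header totals the NT2/D1 lists of SOX2 and NANOG share a control and OCT4 had another. The NT2/D1 OCT4 list was also called with a model fold setting of 5, against 3 for the other lists. Its chromosome 1 peaks had a median false discovery rate of 15.35% from the peak caller, against 2.39% (SOX2) and 2.68% (NANOG) in NT2/D1. In H9 these medians were 6.77% (SOX2), 6.49% (OCT4) and 1.05% (NANOG). A difference of OCT4 from the other factors in NT2/D1 cannot be told apart from those of the control and of peak calling. With the OCT4 and NANOG labels of NT2/D1 exchanged, the ratio was 2.07 for OCT4 and 1.41 for NANOG. Chromosome 1 came 2nd of 23 chromosomes by this ratio for each factor. The values just above it were 2.52 for SOX2 and 2.31 for NANOG on chromosome 21, and 1.42 for OCT4 on chromosome 12. The values just below it were 1.93 for SOX2 on chromosome 19, 1.38 for OCT4 and 1.96 for NANOG on chromosome 7.

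Few of these peaks lay on a gene's start. The 5 promoters below are examples of genes where all 3 factors met on the start in NT2/D1 or in H9. The first 4 carry a peak of all 3 factors over the start site in NT2/D1, and L1TD1 carries all 3 in H9 and none in NT2/D1. Each sequence runs from 250 bases before to 50 bases after the RefSeq start, on the gene's strand of chromosome 1 in the GRCh38.p14 build. Capitals mark CCGGAAG or its reverse complement CTTCCGG, the core letters of ETS-family sites, which are frequent in promoters of broadly used genes.
DHDDS: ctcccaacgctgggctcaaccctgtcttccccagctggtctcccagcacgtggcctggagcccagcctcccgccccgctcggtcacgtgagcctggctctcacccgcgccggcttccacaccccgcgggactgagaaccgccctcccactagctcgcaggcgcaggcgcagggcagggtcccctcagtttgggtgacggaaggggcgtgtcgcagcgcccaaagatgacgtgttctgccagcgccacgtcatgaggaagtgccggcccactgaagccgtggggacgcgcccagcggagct
ITGB3BP: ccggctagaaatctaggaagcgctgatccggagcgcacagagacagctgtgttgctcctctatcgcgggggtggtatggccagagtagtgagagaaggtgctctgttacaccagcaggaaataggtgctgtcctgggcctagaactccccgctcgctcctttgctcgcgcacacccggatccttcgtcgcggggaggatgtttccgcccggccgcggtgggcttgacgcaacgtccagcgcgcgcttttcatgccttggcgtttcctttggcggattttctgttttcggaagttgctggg
PPIH: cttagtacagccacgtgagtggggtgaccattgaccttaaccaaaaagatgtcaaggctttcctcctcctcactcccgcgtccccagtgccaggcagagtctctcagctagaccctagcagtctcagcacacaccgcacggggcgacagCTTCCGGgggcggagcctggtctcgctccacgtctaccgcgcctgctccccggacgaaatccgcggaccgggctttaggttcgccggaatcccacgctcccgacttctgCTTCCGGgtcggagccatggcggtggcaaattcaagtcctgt
PRCC: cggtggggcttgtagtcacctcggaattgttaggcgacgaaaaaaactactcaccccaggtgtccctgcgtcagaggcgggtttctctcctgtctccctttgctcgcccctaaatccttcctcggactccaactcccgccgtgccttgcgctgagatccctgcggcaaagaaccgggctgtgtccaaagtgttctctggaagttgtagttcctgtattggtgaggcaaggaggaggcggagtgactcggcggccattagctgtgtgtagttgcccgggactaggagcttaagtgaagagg
L1TD1: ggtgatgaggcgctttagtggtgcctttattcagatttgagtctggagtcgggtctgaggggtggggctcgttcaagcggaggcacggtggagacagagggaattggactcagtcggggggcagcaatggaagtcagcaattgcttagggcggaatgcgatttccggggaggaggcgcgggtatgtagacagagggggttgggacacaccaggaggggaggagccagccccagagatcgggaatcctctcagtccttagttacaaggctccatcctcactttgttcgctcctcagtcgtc
Peaks are given here by their percentile within their own list, ranked by the authors' score, since the libraries differ in depth and tags or folds of different lists cannot be compared. DHDDS encodes a subunit of the enzyme that makes dolichol for protein glycosylation. Its start lay in NT2/D1 peaks at percentiles 82.5 (SOX2), 10.8 (OCT4) and 6.74 (NANOG), with no H9 peak. ITGB3BP encodes a kinetochore protein, and its peaks stood at 87.9, 96.9 and 93.5 in NT2/D1, against 64.7 for OCT4 and 50.8 for NANOG in H9. PPIH, a cyclophilin of the splicing machinery, had peaks at 91.2, 86.8 and 76.2 in NT2/D1, against 89.3 for OCT4 and 74.3 for NANOG in H9. PRCC, known from its fusion with TFE3 in papillary renal carcinoma, had peaks at 99.6, 92.6 and 58.6 in NT2/D1, against 1.45 for OCT4 and 65.3 for NANOG in H9. Those 3 starts thus lacked only SOX2 in H9, whose list is the shortest, while DHDDS lacked every H9 peak. L1TD1, an RNA-binding protein of pluripotent cells, had no NT2/D1 peak on its start, against percentiles 44.5 (SOX2), 91.1 (OCT4) and 76.4 (NANOG) in H9. GNRHR2 and SNORD74 were the other genes with all 3 factors on the start in NT2/D1, and SNORD74 was the only gene with all 6 lists there. In H9 11 genes had all 3 factors on the start, against 6 in NT2/D1. ARHGEF19, CELF3, H2AC18, H4C14 and ZBTB40 had the pattern of L1TD1, with all 3 in H9 and none in NT2/D1.

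PPIH was the only one of the printed promoters with the ETS letters. None held the octamer ATGCAAAT or the SOX letters AACAATG on either strand, which says only that these letters are not in these windows. Over all 35116 promoters in the RefSeq table, 10.3% held CCGGAAG, 1.77% the octamer and 3.33% the SOX letters. Promoters were matched by gene, so each promoter of a gene with a start in a peak was counted. Genes with a start in an NT2/D1 OCT4 peak had 384 chromosome 1 promoters, of which 17.4% (interval 14.0 to 21.6) held CCGGAAG. For H9 OCT4 peaks there were 92 such promoters, of which 22.8% (15.4 to 32.4) held it. The octamer was in 1.82% of these NT2/D1 OCT4 promoters and 3.26% of the H9 ones. For SOX2 peaks CCGGAAG was in 11.9% (6.18 to 21.8) of such promoters in NT2/D1, against 12.2% (5.32 to 25.5) in H9. For NANOG peaks it was in 9.33% (4.59 to 18.0) in NT2/D1, against 18.5% (13.3 to 25.2) in H9. Peaks covered the start of 52 (SOX2), 314 (OCT4) and 64 (NANOG) chromosome 1 genes in NT2/D1, against 34, 75 and 118 in H9. Most peaks were far from starts, with median distances of 43.2, 31.8 and 38.5 kb for SOX2, OCT4 and NANOG in NT2/D1, against 47.8, 27.8 and 38.3 kb in H9.

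The arms of chromosome 1 held similar shares of the excess. For SOX2 the short arm had 3286 NT2/D1 peaks, against 806 in H9, and the long arm 3415, against 795 in H9. For OCT4 the short arm had 2857 NT2/D1 peaks, against 1310 in H9, and the long arm 2544, against 1179 in H9. For NANOG the short arm had 2951 NT2/D1 peaks, against 1477 in H9, and the long arm 3000, against 1328 in H9. Taken as a share of the list, the short arm was 2.05 (SOX2), 1.40 (OCT4) and 1.98 (NANOG) times higher in NT2/D1, and the long arm 2.16, 1.38 and 2.24 times. Long-arm peaks per short-arm peak numbered 1.04 (SOX2), 0.890 (OCT4) and 1.02 (NANOG) in NT2/D1, against 0.986, 0.900 and 0.899 in H9. The NT2/D1 over H9 quotient of these was 1.05 (interval 0.945 to 1.18) for SOX2, 0.989 (0.900 to 1.09) for OCT4 and 1.13 (1.03 to 1.24) for NANOG. The interval left out 1 for NANOG, but with the OCT4 and NANOG labels of NT2/D1 exchanged that factor's quotient was 0.990 and OCT4's 1.13. The H9 lists of the 2 factors have nearly the same long per short value, so the exchange could only carry the quotient with the library.

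Within each arm the excess was uneven. Chromosome 1 was divided into 5 Mb bins, and a bin was called when its share of the list differed by more than 1.5 times between the lines and it held at least 5 H9 peaks. NT2/D1 was higher in 31 of 47 bins for SOX2, where 25.6% of bins in the whole genome passed the same rule. It was higher in 19 of 47 bins for OCT4, with 14.4% genome-wide, and in 32 of 47 for NANOG, with 25.1% genome-wide. NT2/D1 was lower in 3 bins for SOX2, 3 for OCT4 and 2 for NANOG, where 45.3%, 26.1% and 46.9% of bins passed genome-wide. On the short arm 13 (SOX2), 10 (OCT4) and 14 (NANOG) of 25 bins were higher, and on the long arm 18, 9 and 18 of 22. Chromosome 1 was chosen on the same contrast, so these counts describe where the excess lay and nothing is read from their size against the genome.

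**Figure D1:**
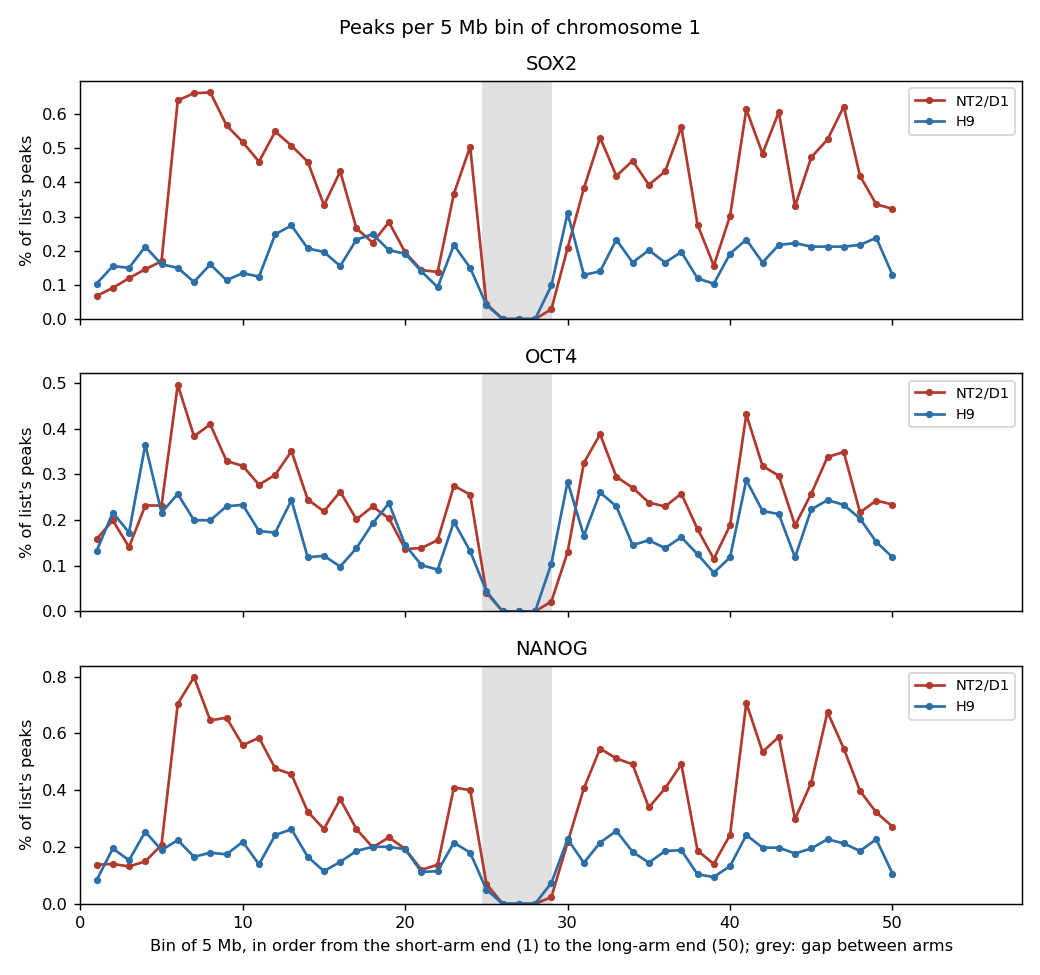
Share of each list's peaks (y axis, percent of the list) in each 5 Mb bin of chromosome 1 (x axis, bins in order from the end of the short arm), for NT2/D1 (red) and H9 (blue), 1 library each. The NT2/D1 lines step up between the 5th and 6th bin, fall to the H9 line around the 20th bin, and stay above it over most of the long arm.

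From the profile, chromosome 1 fell into 6 stretches, drawn after the bin values were seen and given as description only. The end of the short arm, from 0 to 25 Mb, held 228 (SOX2), 444 (OCT4) and 262 (NANOG) NT2/D1 peaks, against 151, 326 and 296 in H9. As shares of the lists these were 0.760 (interval 0.619 to 0.933), 0.872 (0.757 to 1.01) and 0.877 (0.743 to 1.03) times the H9 share. The end of the short arm was thus not enriched in NT2/D1 for any factor, and the SOX2 interval lay below 1. In its first bin, 0 to 5 Mb, the ratios were 0.65 (0.366 to 1.17) for SOX2, 1.20 (0.813 to 1.77) for OCT4 and 1.66 (1.04 to 2.65) for NANOG. These intervals overlapped, so no difference between factors is read from them. That bin held 26, 73 and 47 peaks in NT2/D1, against 20, 39 and 28 in H9.

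The stretch from 25 to 80 Mb held the highest ratios. It had 2226 (SOX2), 1657 (OCT4) and 1996 (NANOG) NT2/D1 peaks, against 362, 606 and 689 in H9. The list shares were 3.10 (interval 2.77 to 3.46), 1.75 (1.60 to 1.92) and 2.87 (2.64 to 3.13) times higher in NT2/D1. In 30 to 35 Mb the ratio reached 6.09 (3.90 to 9.50) for SOX2 and 4.83 (3.62 to 6.44) for NANOG, the highest on the chromosome for both. That bin held 254 (SOX2) and 273 (NANOG) peaks in NT2/D1, against 21 and 56 in H9. OCT4 had 177 peaks there in NT2/D1, against 59 in H9, a ratio of 1.92. The highest OCT4 ratio was 2.67 (1.78 to 4.01), in 75 to 80 Mb, with 121 peaks in NT2/D1, against 29 in H9.

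The ratio did not stay level over this stretch. For SOX2 it was between 3.71 and 6.09 in the 6 bins from 25 to 55 Mb and between 1.70 and 2.79 in the 5 bins from 55 to 80 Mb. For NANOG the ranges were 2.56 to 4.83 and 1.74 to 2.50, and for OCT4 1.36 to 2.05 and 1.44 to 2.67. The cut at 55 Mb was set with the bin values known, so these ranges are description only. The OCT4 ranges overlapped. The NANOG ranges nearly met, at 2.56 (interval 1.96 to 3.34) and 2.50 (1.80 to 3.46). The nearest SOX2 values were 3.71 (2.43 to 5.69) and 2.79 (1.89 to 4.11), whose intervals also overlapped.

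The lower edge of the stretch was abrupt in the NT2/D1 lists. In 1 Mb windows the 4 windows before 24 Mb held 4, 7, 10 and 13 NT2/D1 SOX2 peaks, and the 4 windows after it 31, 38, 61 and 71. For NT2/D1 OCT4 they held 21, 25, 14 and 17 before and 30, 44, 49 and 56 after. For NT2/D1 NANOG they held 9, 5, 14 and 15 before and 28, 46, 47 and 74 after. Every window after 24 Mb was above every window before it in each NT2/D1 list. In H9 the same windows held 6, 4, 4 and 10 SOX2 peaks before and 7, 2, 5 and 5 after. H9 OCT4 had 13, 10, 15 and 16 before and 10, 19, 18 and 18 after, and H9 NANOG 18, 8, 12 and 12 before and 14, 15, 12 and 26 after. The H9 windows overlapped across that position in every list. The 24 Mb position was set with these counts known, so the separation there is a description. At 25 Mb, where the stretch was drawn, the 5 Mb on either side were also compared. NT2/D1 SOX2 windows then overlapped, with up to 31 peaks before and 29 or more after. NT2/D1 OCT4 had up to 30 before and 32 or more after, and NT2/D1 NANOG up to 28 and 34 or more.

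Between 80 and 110 Mb the shares of the lines were closer, with OCT4 alone having an interval above 1. This stretch held 480 (SOX2), 492 (OCT4) and 392 (NANOG) NT2/D1 peaks, against 214, 268 and 341 in H9. The ratios were 1.13 (interval 0.962 to 1.33), 1.18 (1.01 to 1.36) and 1.14 (0.986 to 1.32). From 110 to 121.5 Mb, next to the gap between the arms, NT2/D1 was again higher, with 352, 264 and 301 peaks, against 79, 110 and 151 in H9. Those shares were 2.24 (1.76 to 2.86), 1.54 (1.23 to 1.92) and 1.98 (1.63 to 2.40) times higher for SOX2, OCT4 and NANOG. In 105 to 110 Mb NT2/D1 had 53, 72 and 47 peaks, against 18, 27 and 39 in H9, while in 115 to 120 Mb it had 194, 118 and 137, against 29, 39 and 61 in H9.

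On the long arm the portion nearest the gap went the other way. From 142.5 to 150 Mb NT2/D1 had 91 (SOX2), 70 (OCT4) and 82 (NANOG) peaks, against 79, 115 and 102 in H9. The ratios were 0.580 (interval 0.429 to 0.784), 0.390 (0.290 to 0.525) and 0.797 (0.596 to 1.06). In this stretch the peaks of both lines were also broader and deeper than on other chromosomes. H9 medians were 75 (SOX2), 48 (OCT4) and 66.5 (NANOG) tags, against 46, 32 and 40 on other chromosomes in the same lists. NT2/D1 medians were 17, 12.5 and 12 tags, against 11, 7 and 9, and 515, 359 and 374.5 bp, against 370, 269 and 315 bp. This portion of the genome is rich in recent duplicated copies, where reads match several places. The NT2/D1 headers give read files whose names contain the word unique, and the H9 headers do not. Whether reads were filtered differently was not tested.

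From 150 Mb to the end of the long arm NT2/D1 was higher again, with 3324 (SOX2), 2474 (OCT4) and 2918 (NANOG) peaks, against 716, 1064 and 1226 in H9. The shares were 2.34 (interval 2.16 to 2.53), 1.49 (1.39 to 1.60) and 2.36 (2.21 to 2.52) times higher. Over the 20 bins of this stretch the ratio ran from 1.41 to 3.80 for SOX2, from 1.07 to 1.98 for OCT4 and from 1.42 to 2.97 for NANOG. Every bin was thus above 1 for every factor. The lowest NT2/D1 counts in the stretch were in 190 to 195 Mb, with 60, 53 and 48 peaks, and the H9 counts there were also low, with 20, 25 and 32.

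**Figure D2:**
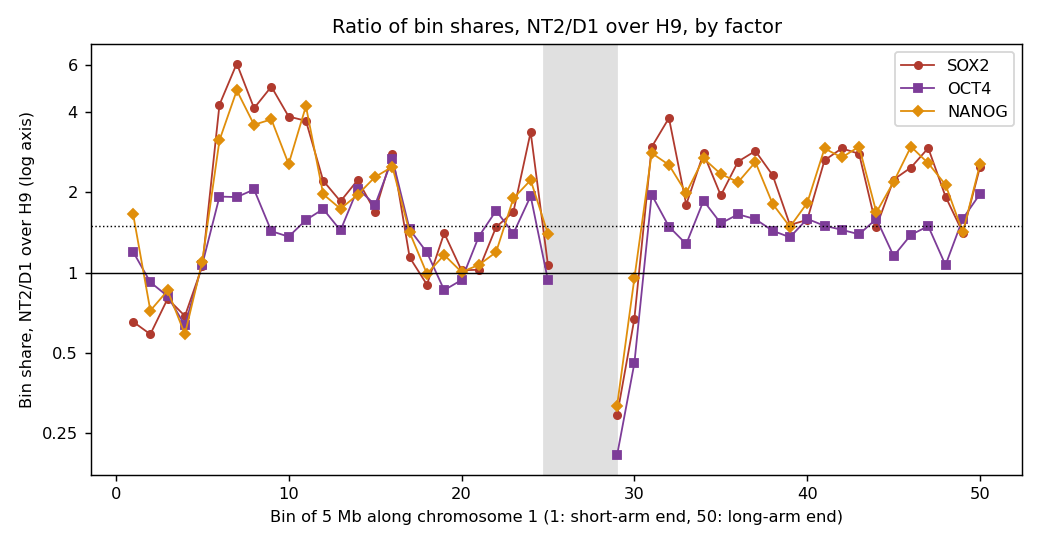
Ratio of bin shares, NT2/D1 over H9 (y axis, log scale), in 5 Mb bins along chromosome 1 (x axis, bin order), for SOX2, OCT4 and NANOG. The solid line is equal share and the dotted line 1.5 times. The 2 bins beside the gap on the long arm are below 1 for every factor, and the 20 bins after them are above it.

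The NT2/D1 peaks of the enriched stretches also held more tags and were wider. A tag is a sequenced fragment end that the authors counted in a peak. These are values within each list, as the authors' peak caller gave them. Median tags per peak in NT2/D1 SOX2 were 10, 16, 11, 14, 17 and 15 in the 6 stretches in order from the short-arm end (stretches 1 to 6), and 11 on other chromosomes. In NT2/D1 OCT4 they were 7, 11, 7, 9, 12.5 and 10, and 7 elsewhere. In NT2/D1 NANOG they were 9, 12, 9, 10, 12 and 11, and 9 elsewhere. Stretches 1 and 3, where the share ratios were lowest apart from stretch 5, thus had medians at or within 1 tag of those on other chromosomes. Stretch 5 had high medians but few peaks. In H9 SOX2 the medians were 47, 46, 44, 40, 75 and 44, and 46 elsewhere, so that stretch 5 alone exceeded the other chromosomes by more than 1 tag.

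Median widths of NT2/D1 SOX2 peaks were 490 bp from 25 to 80 Mb and 459 bp from 150 Mb on, against 344 bp from 0 to 25 Mb and 370 bp on other chromosomes. H9 SOX2 widths were 644 and 623.5 bp in the same enriched stretches, 623 bp from 0 to 25 Mb and 633 bp on other chromosomes. The authors' fold over the control did not follow the tags. In NT2/D1 OCT4 the median fold was 7.33 from 25 to 80 Mb, 9.16 from 0 to 25 Mb and 8.79 on other chromosomes. In NT2/D1 SOX2 it was 6.04, 6.25 and 6.25 in the same order. The median score, a column with a damaged heading whose values were read as minus 10 times the log10 of the caller's p, was 37.6 from 25 to 80 Mb in NT2/D1 SOX2 and 34.8 from 0 to 25 Mb, a narrow range beside the 90th percentile of 57.7 on chromosome 1.

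**Figure D3:**
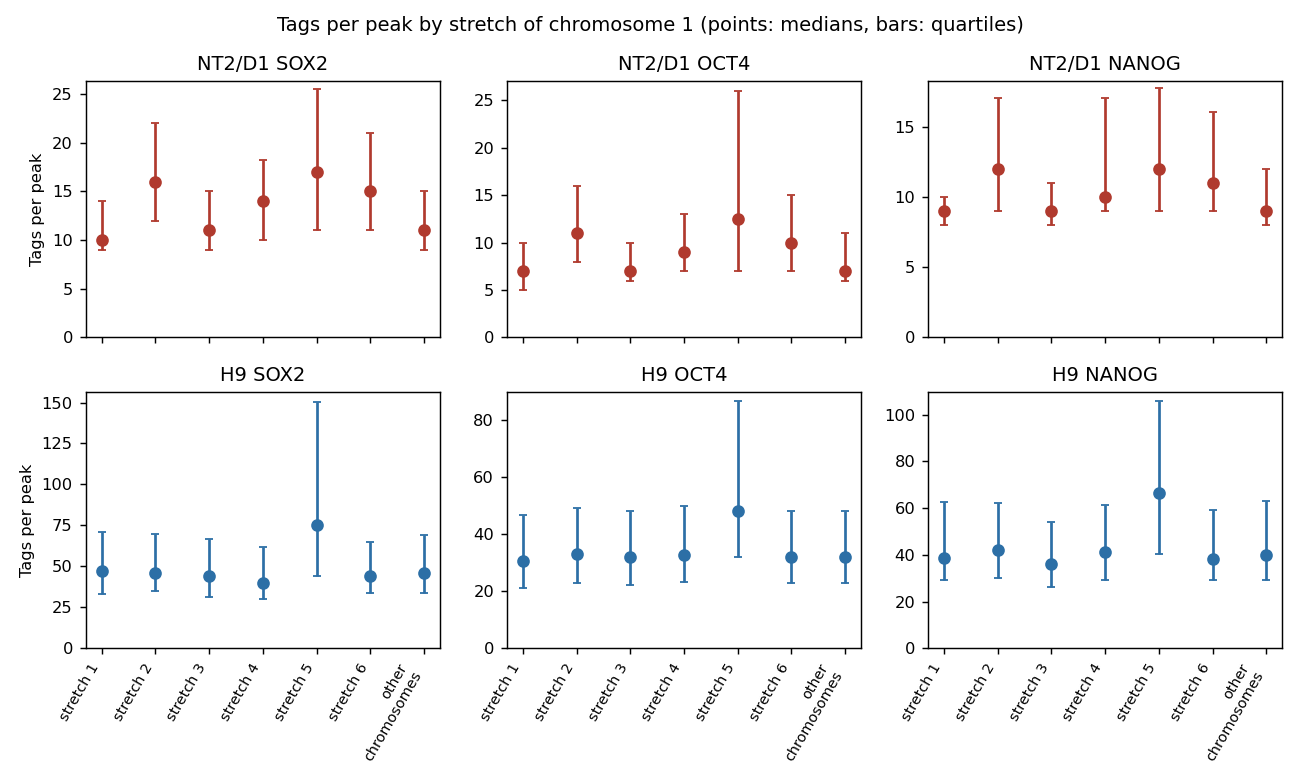
Tags per peak (y axis, points are medians, bars run from the lower to the upper quartile) in the 6 stretches of chromosome 1, numbered from the short-arm end, and on other chromosomes, for NT2/D1 (upper row) and H9 (lower row). Each panel has its own scale. In NT2/D1 stretches 2, 4, 5 and 6 lie above other chromosomes, and in H9 stretch 5 stands out.

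The chromosome 1 excess was present at all levels of the score. In NT2/D1 SOX2 the share on chromosome 1 was 20.7% in the strongest decile of the list and 22.7% in the next, against 13.8% and 15.0% in the weakest 2 deciles. H9 SOX2 ran between 7.13% and 9.10% over its deciles. NT2/D1 OCT4 ran between 10.2% and 13.0%, against 7.54% to 9.03% in H9 OCT4, with no overlap. NT2/D1 NANOG had 19.6% and 20.6% in the strongest 2 deciles, 13.8% in decile 8 and 21.6% in the weakest, against 7.35% to 8.997% in H9 NANOG. Every decile of an NT2/D1 list lay above every decile of the H9 list of the same factor. Chromosome 1 was chosen for its share in these same lists. The deciles thus describe how the excess was spread over the score and are no separate check of it.

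**Figure D4:**
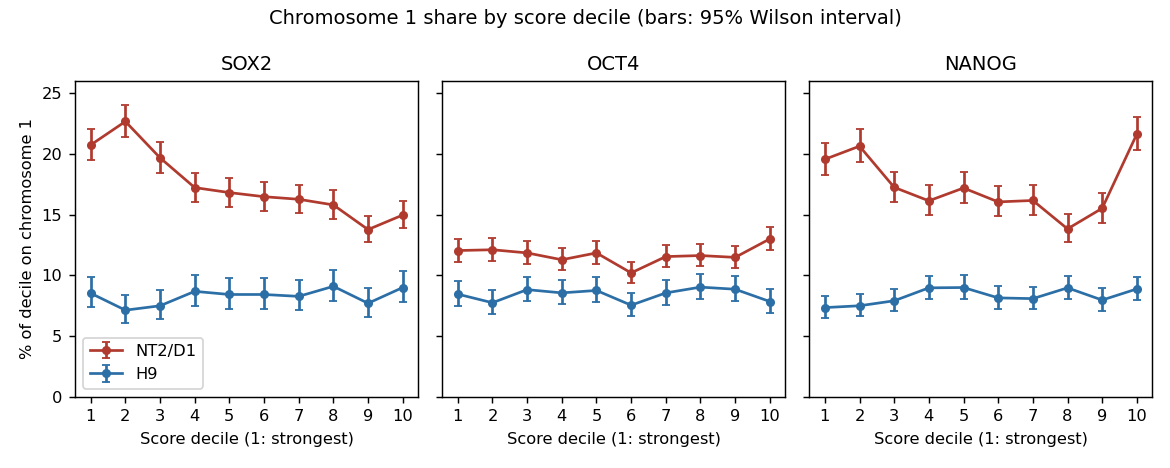
Percent of peaks on chromosome 1 (y axis) in each decile of a list ranked by score (x axis, 1 is the strongest), with 95% Wilson intervals, for NT2/D1 (red) and H9 (blue). All NT2/D1 points lie above the H9 points, and SOX2 is highest in deciles 1 and 2, and NANOG in decile 10, followed by deciles 2 and 1.

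Peaks placed at H9 sites carried the excess as well, to a lower degree. Of the NT2/D1 SOX2 peaks at an H9 peak of any factor, 13.3% (642 of 4845) lay on chromosome 1, against 18.0% (6059 of 33578) of those elsewhere. For OCT4 these were 10.9% (1219 of 11230) at H9 sites, against 11.97% (4182 of 34939) elsewhere. For NANOG they were 14.1% (564 of 4002) at H9 sites, against 17.8% (5387 of 30206) elsewhere. Both classes exceeded the 8.27% to 8.42% of H9 peaks on chromosome 1, and peaks away from H9 sites exceeded them by more. Both are parts of the lists on which chromosome 1 was chosen, so this too is a description.

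Read from the H9 side, where the number of sites is fixed by H9 alone, more sites were also called in NT2/D1 within the 2 long enriched stretches. Those stretches were drawn on the bin shares of the same lists, so this is not a separate check of the excess. Of the 362 H9 SOX2 peaks from 25 to 80 Mb, 29.3% (interval 24.8 to 34.2) overlapped an NT2/D1 SOX2 peak, as did 25.1% (22.1 to 28.4) of the 716 from 150 Mb on. From 0 to 25 Mb it was 13.9% (9.28 to 20.3), from 80 to 110 Mb 15.0% (10.8 to 20.3) and on other chromosomes 15.6% (15.1 to 16.2). For OCT4 the shares were 37.1% and 36.2% in the enriched stretches, 21.8% from 0 to 25 Mb, 30.2% from 80 to 110 Mb and 25.5% on other chromosomes. For NANOG they were 20.3% and 17.0%, 8.11%, 12.3% and 9.31%. In the short enriched stretch from 110 to 121.5 Mb the shares were 22.8% (14.9 to 33.2) for SOX2, 34.5% (26.3 to 43.8) for OCT4 and 10.6% (6.63 to 16.5) for NANOG. Its SOX2 and NANOG intervals held the share on other chromosomes. The 25 to 80 Mb interval lay above that of 0 to 25 Mb for each factor. NT2/D1 peaks were denser and wider in these stretches, and the part of density and width in these shares was not tested. Among the strongest decile of H9 SOX2 peaks, 77.8% (35 of 45) were also called in NT2/D1 from 25 to 80 Mb and 77.3% (58 of 75) from 150 Mb on, against 53.6% (949 of 1770) on other chromosomes. From 0 to 25 Mb it was 60% (9 of 15, interval 35.7 to 80.2), an interval that held the value of other chromosomes. For OCT4 the gap was smaller, with 80.3% (69.2 to 88.1) from 25 to 80 Mb, against 70.8% (69.0 to 72.5) on other chromosomes. Those intervals overlapped. For NANOG these were 70.8% (58.8 to 80.4), against 41.0% (39.3 to 42.7). At the strong shared SOX2 sites NT2/D1 SOX2 peaks had a median of 33 tags from 25 to 80 Mb, 44 from 150 Mb on and 25 on other chromosomes. The H9 SOX2 peaks at the same sites had medians of 130, 128.5 and 139 tags.

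**Figure D5:**
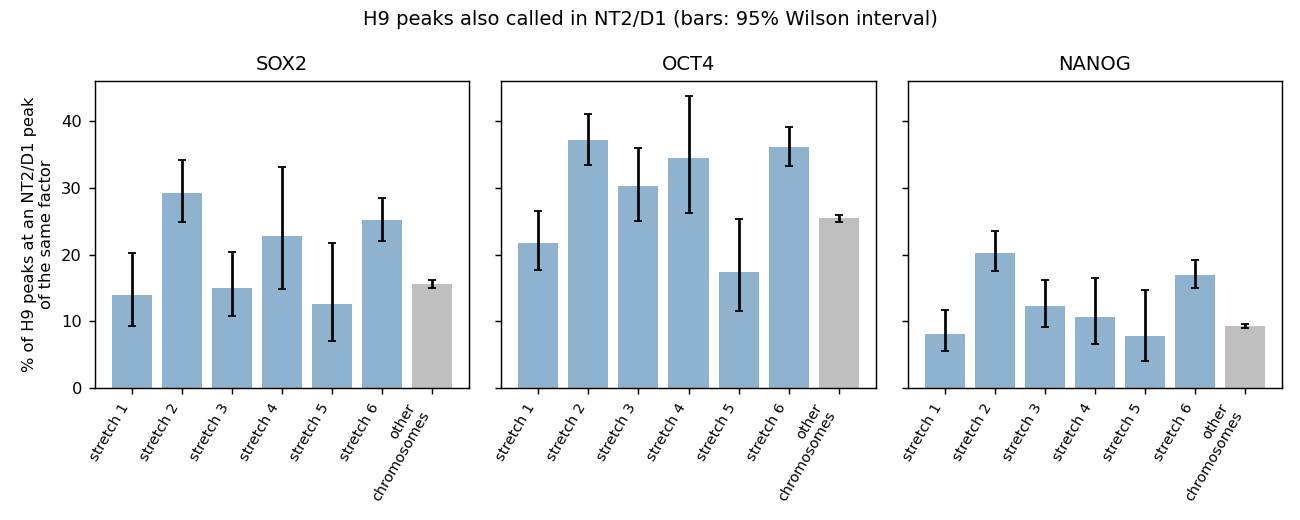
Percent of H9 peaks that overlapped an NT2/D1 peak of the same factor by at least 1 bp (y axis, bars with 95% Wilson intervals), in the 6 stretches of chromosome 1, numbered from the short-arm end, and on other chromosomes (grey). Stretches 2 and 6 stand above other chromosomes for each factor, and stretches 1 and 5 do not.

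Merging overlapping peaks of all lists gave 18737 separate regions on chromosome 1. NT2/D1 bound 15689 of them with at least 1 factor, against 4631 for H9, and all 3 factors met in 311 regions in NT2/D1, against 661 in H9. Chromosome 1 held 15.9% of the genome's regions with all 3 factors in NT2/D1, against 8.07% of those with all 3 in H9. All 6 lists met in 142 regions, which were 45.7% of the NT2/D1 and 21.5% of the H9 regions with all 3 factors. The H9 share was 21.5% (interval 18.5 to 24.8) on chromosome 1, against 14.3% (13.5 to 15.1) on other chromosomes. The NT2/D1 share went the other way, with 45.7% on chromosome 1, against 65.4% on other chromosomes. By stretch the H9 share was 24.7% from 25 to 80 Mb and 26.7% from 150 Mb on, against 12.3% from 0 to 25 Mb and 11.96% from 80 to 110 Mb. Regions with all 3 factors in NT2/D1 and no H9 peak numbered 97 on chromosome 1, which is 29.2% of the 332 in the genome. Chromosome 1 held 210 regions of the opposite kind, 6.32% of the genome's 3322. These shares come from the lists on which chromosome 1 was chosen, so they are description as well.

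Strong regions bound by all 3 factors in NT2/D1 as well as in H9 were found on each arm, ranked by their lowest percentile over the lists. The region 30.3 kb from the start of RCC2, a regulator of chromosome condensation and mitosis, spans chr1:17796342-17798094 in hg19. Its peaks stood at percentiles 99.9 (SOX2), 99.7 (OCT4) and 99.7 (NANOG) of the NT2/D1 lists, against 99.6, 99.96 and 99.5 of the H9 lists. It lies in stretch 1, where NT2/D1 peaks were not in excess. KDM4A, a histone H3 lysine demethylase, had such a region at chr1:44125233-44126758, 10.2 kb from its start, at percentiles 99.4, 99.998 and 99.1 in NT2/D1, against 99.7, 99.9 and 99.7 in H9. Its OCT4 peak was the strongest OCT4 peak of NT2/D1 on the short arm, with 110 tags. DENND1B, a Rab35 exchange factor, had one at chr1:197782793-197784112 on the long arm at percentiles 99.9, 99.8 and 99.9 in NT2/D1, against 98.8, 99.3 and 99.1 in H9. The other 5 were nearest to ZNF436, PPP1R12B, SHCBP1L, SERBP1 and ZBTB8B, and 3 of the 8 in all lay on the long arm.

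Strong regions with all 3 factors in NT2/D1 and no H9 peak were nearest to DNTTIP2, SH3D21, MATN1 and RD3. The SH3D21 region, chr1:36772643-36773816, held 19 (SOX2), 22 (OCT4) and 23 (NANOG) tags in NT2/D1. Its OCT4 and NANOG peaks covered the gene's start, and its SOX2 peak did not. In the other direction, H9 had all 3 factors without an NT2/D1 peak near NME7, RERE, PTBP2, PRDM2 and CEP170. The NME7 region, chr1:169256974-169258239, held 120, 70 and 193 tags in H9 although it lies in the enriched long-arm stretch. The RERE region, 85.8 kb from the start of this nuclear receptor corepressor gene, held 97, 97 and 90 tags in H9 and lies in stretch 1.

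The strongest SOX2 peaks of NT2/D1 on the short arm were nearest to SLC2A1, HPCAL4 and AK4. SLC2A1 encodes the glucose transporter GLUT1, and its peak, 49.4 kb from the start, had 75 tags and a fold of 26.1. AK4 encodes a mitochondrial adenylate kinase, and SOX2 (76 tags), OCT4 (71) and NANOG (87) all peaked about 1 kb from its start in NT2/D1. On the long arm the strongest SOX2 peaks were nearest to SPATA45 (69 tags, fold 48.9), ATP1A4 and DENND1B. The strongest OCT4 peaks were nearest to KDM4A, HPCAL4 and PIK3R3 on the short arm and to PRRC2C, NR5A2 and COA6 on the long arm. The strongest NANOG peaks were nearest to AK4, GRHL3 and RCC2 on the short arm and to COA6, DENND1B and KCNK1 on the long arm. COA6, a cytochrome oxidase assembly factor, was 147 kb from its NANOG peak of 87 tags, so the nearest gene is given as a label of position.

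Each peak was counted for its nearest gene, over the chromosome 1 genes that the peak lists name. Under that count a peak lay within 50 kb of the start of 64.6% (SOX2), 71.5% (OCT4) and 64.7% (NANOG) of the 2037 chromosome 1 genes in NT2/D1, against 27.9%, 43.4% and 43.8% in H9. All 10 genes of a list for pluripotency and the early embryo had a peak of each factor in NT2/D1, against 8 (SOX2), 10 (OCT4) and 10 (NANOG) in H9. A region with all 3 factors was near 7 of the 10 in NT2/D1 and 7 in H9, where 8.79% of all chromosome 1 genes had one in NT2/D1 and 13.0% in H9. OCT4 and NANOG thus had a peak near every gene of the list in both lines.

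LEFTY1, an inhibitor of NODAL signalling, had its strongest peaks about 9 to 10 kb from the start, at percentiles 98.8 (SOX2), 99.6 (OCT4) and 89.5 (NANOG) in NT2/D1, against 99.7, 99.4 and 99.7 in H9. NR5A2, a nuclear receptor that can activate the OCT4 gene in mouse cells, had its strongest peaks at percentiles 99.5, 99.9 and 85.7 in NT2/D1, against 95.4, 97.3 and 87.4 in H9. L1TD1 had 9, 6 and 13 peaks within 50 kb in NT2/D1, against 7, 9 and 7 in H9, and its strongest NT2/D1 peaks lay 2.94 (SOX2), 3.45 (OCT4) and 3.57 (NANOG) kb from the start shown above. FOXD3, a forkhead factor of pluripotent and neural crest cells, had 5, 7 and 5 peaks in NT2/D1, against 5, 6 and 6 in H9. LIN28A, which blocks let-7 maturation, had 5, 2 and 1 peaks in NT2/D1, against 0, 2 and 1 in H9. Except for SOX2 at LIN28A and at MIXL1, a mesendoderm factor, these genes had peaks of each factor in both lines.

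Of 31 genes for neural and developmental transcription factors, 29 (SOX2), 29 (OCT4) and 27 (NANOG) had a peak in NT2/D1, against 15, 24 and 26 in H9. These are 93.5%, 93.5% and 87.1% in NT2/D1, where all chromosome 1 genes had 64.6%, 71.5% and 64.7%, and 48.4%, 77.4% and 83.9% in H9, where all genes had 27.9%, 43.4% and 43.8%. A region with all 3 factors was near 7 of the 31 in NT2/D1, against 11 in H9. Single genes went either way. POU3F1, a POU factor of early neural cells, had 7, 6 and 10 peaks in NT2/D1, against 0, 2 and 0 in H9. LMX1A, a factor of midbrain dopamine neuron precursors, had 7, 6 and 13 peaks in NT2/D1, against 4, 1 and 5 in H9. PAX7, a factor of the dorsal neural tube and muscle precursors, had 1, 2 and 1 peaks in NT2/D1, against 2, 9 and 7 in H9. BARHL2 had 1, 2 and 3 in NT2/D1, against 2, 8 and 6 in H9, and PROX1 had 4, 4 and 0, against 4, 6 and 6 in H9. HES5, a NOTCH target in stretch 1, had none in NT2/D1, against 1 SOX2 and 1 NANOG peak in H9. Lists for cell types that neither line represents showed a like gap. Of 8 muscle genes, 6, 7 and 6 had a peak in NT2/D1, against 1, 2 and 4 in H9. Of 12 immune genes, 9, 8 and 9 had one in NT2/D1, against 3, 5 and 5 in H9. Of 8 epidermal genes measured, 5, 2 and 5 had one in NT2/D1, against 1, 1 and 1 in H9. The NT2/D1 share lay between 66.7% and 87.5% in the muscle and immune lists and was 62.5%, 25% and 62.5% in the epidermal list, beside 64.6%, 71.5% and 64.7% of all chromosome 1 genes. The H9 share was 12.5%, 25% and 50% for muscle, 25%, 41.7% and 41.7% for immune and 12.5% for each factor for epidermal genes. All chromosome 1 genes had 27.9%, 43.4% and 43.8% in H9.

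Chromatin regulators had a peak at 12, 15 and 11 of 17 genes in NT2/D1, against 9, 9 and 9 in H9. Signalling genes had one at 13, 18 and 19 of 25 in NT2/D1, against 12, 14 and 16 in H9. Germ cell genes had one at 3, 5 and 6 of 8 in NT2/D1, against 3, 3 and 3 in H9. In NT2/D1 the shares were 70.6%, 88.2% and 64.7% for chromatin regulators, 52%, 72% and 76% for signalling genes and 37.5%, 62.5% and 75% for germ cell genes, on either side of those of all chromosome 1 genes. In H9 chromatin regulators stood at 52.9% for each factor, signalling genes at 48%, 56% and 64%, and germ cell genes at 37.5% for each. All chromosome 1 genes had 27.9%, 43.4% and 43.8% in H9, so the first 2 lists lay above them there. Over the whole chromosome the genes with most NT2/D1 peaks within 50 kb were ESRRG, NFASC and PDE4B. ESRRG, an orphan nuclear receptor, had 11 (SOX2), 11 (OCT4) and 10 (NANOG) peaks in NT2/D1, against 3, 6 and 5 in H9. LRP8, a reelin receptor, had 12, 3 and 10 peaks in NT2/D1, against 0, 1 and 0 in H9. GRIK3, a kainate receptor subunit, had 12, 2 and 9, against 0, 1 and 0 in H9. SYT2, a synaptic vesicle calcium sensor, had 5, 7 and 12, against 0, 0 and 1 in H9. These 3 genes, with at most 1 peak of any factor in H9, had the lowest H9 counts among the genes with most NT2/D1 peaks. Others of those genes had many in H9. Over the 3 factors L1TD1 had 28 peaks in NT2/D1, against 23 in H9, ROR1 24, against 18, and NFASC 30, against 16.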

How the data were processed

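Chromatin of both lines was sonicated, immunoprecipitated and sequenced on the SOLiD system, per the labels' protocols. Peaks were called on each library against an IgG control of the same line with MACS at p 0.001, per the file headers. The headers list 10218752 to 23160564 unique tags for the NT2/D1 libraries and 54046559 to 77649240 for H9. They also give a band width of 200 in NT2/D1 and 2000 in H9, and a model fold of 5 for NT2/D1 OCT4 and 3 for the other lists. Control libraries kept 17.1% (SOX2 and NANOG) and 52.4% (OCT4) of tags as unique in NT2/D1, and 68.9% in H9. By these totals NT2/D1 SOX2 and NANOG share a control and OCT4 had another, as all H9 lists share theirs. Which IgG library each NT2/D1 list used is not clear, since the labels give 1 such sample. The authors' deposited columns give each peak's tag count, score (its heading was damaged, and the values were read as minus 10 log10 p), fold over the control and FDR in percent. Lists differ in depth, so tags, folds and scores describe and rank peaks within a list, and no difference between lists is read from them.

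Peaks were assigned to arms and bins by script (Python 3.11.15, pandas 2.3.3, scipy 1.17.1), and shares of each list were compared with Wilson or log-ratio intervals. Gene names came from the RefSeq accessions in the lists, 95.5% of which were matched. Overlap meant at least 1 bp. The ratio and its interval were tested on simulated lists. The members, gene lists and stretches were chosen with earlier results of these data known. Named genes were list members, genes nearest to the 3 strongest NT2/D1 peaks per arm and list, to the 8 highest regions shared by all lists, to the 5 highest of each line alone, and to the strongest peaks of the bins with extreme ratios. A gene that this rule names is not reported here. Genes with most peaks and those with a peak on the start were named after their values were seen. Listed microRNA genes (8) had no matched accession and were not analysed here. The alternatives were score thresholds, equal list lengths, exchanged labels, bin size, fold and overlap rules.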

Additional observations from a re-analysis of the deposited data

How the results depend on the processing

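No paired analysis was possible because each group holds 1 library and the results come from no test. The chromosome 1 ratio stayed above 1 for each factor under every alternative run. With the upper 50% of each list by score it was 2.41 for SOX2 and 2.23 for NANOG, and with lists of equal length 2.35 and 2.21. With the OCT4 and NANOG labels of NT2/D1 exchanged it was 2.07 for OCT4 and 1.41 for NANOG. The long to short arm quotient then became 1.13 for OCT4 and 0.990 for NANOG, which turned its direction. The count of bins higher in NT2/D1 was then 35 for OCT4 and 17 for NANOG. With 10 Mb bins, of which fewer exist, it was 17 (SOX2), 12 (OCT4) and 17 (NANOG), and at 2-fold 3 for OCT4. The chromosome 1 share of NT2/D1 peaks at H9 sites was 11.9% (SOX2) and 12.6% (NANOG) with summits within 200 bp, 12.3% for OCT4 with reciprocal overlap, and 12.9% for NANOG with the upper 50% of the lists. Depth differed between the lines, so a peak missing from NT2/D1 may lie under its detection limit.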

Other observations

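By the rule for the strongest peaks in bins of extreme ratio, the NT2/D1 SOX2 peak in the lowest bin, 140 to 145 Mb, was nearest to FAM72D, with 244 tags, a fold of 3.42 and a span of chr1:144007241-144011657 in hg19. The ERRFI1 region, 141 kb from the start of this inhibitor of the EGF receptor, carried NT2/D1 peaks of 20 (SOX2) and 35 (NANOG) tags with folds of 12.5 and 35.0, in a bin where the NT2/D1 share was lower than that of H9. In the bins of highest ratio, the strongest peaks were nearest to DHDDS, SLC2A1 and ZBTB8B for SOX2, to AKIRIN1, AK4 and ST6GALNAC5 for OCT4, and to HPCAL4, ZYG11A and ZBTB8B for NANOG.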
